A study of Mus musculus with 18 samples.

Results

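The genes described here are 46 genes of the cell cycle and of DNA replication. They were taken as a list of gene symbols with no threshold on a measured value, although earlier results of these data were known when the list was made, and were set apart as 19 genes of the G1/S transition and of replication, 21 genes of G2 and mitosis (G2/M), and 6 regulators of G1. Of the 46, 45 had at least 1 named probe among the 22485 genes measured, 32 of them with a single probe. The exception was Ccnb1, a G2/M cyclin gene, for which no named probe was used here. All 45 were tested, since no filter on low values was applied.

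The study measured RNA of mouse macrophages grown from bone marrow on 18 two-colour arrays, to ask how heme, the iron-holding pigment of red cells, alters the macrophage response to LPS, a bacterial cell wall lipid. The 5 groups were Nrf2-/- cells with heme-albumin (200 µM) for 4 h followed by LPS (10 ng/ml) for 4 h (arrays a to e, n = 5), Nrf2-/- cells with LPS for 4 h (a to d, n = 4), Nrf2+/+ cells with heme-albumin followed by LPS in the same way (a to c, n = 3), Nrf2+/+ cells with LPS for 4 h (n = 3), and Nrf2+/+ cells with albumin lacking heme for 4 h (n = 3). Nrf2 is the transcription factor that switches on genes against oxidative stress, and no group holds Nrf2-/- cells with albumin. Marrow came from mice aged 8 to 10 weeks, and every culture had 7 days of M-CSF (10 ng/ml), the growth factor that drives macrophage precursors to divide and mature.

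Every value below is the log2 ratio of a sample (Cy5) to a 0 h reference of untreated cells (Cy3), so 0 is the level of the reference and -1 is 2-fold below it. The labels give no genotype for the reference, so a difference between Nrf2-/- and Nrf2+/+ cells cannot be told apart from one between references. The heme difference within a genotype does not carry that doubt. For the LPS arrays no albumin step is labelled, whereas the treatment protocol mentions albumin alone before LPS, so the groups with heme may also have had 4 h more in culture. That time and heme cannot be told apart. By the labels, heme and LPS arrays had 4 h more of treatment than albumin arrays, which in that comparison cannot be told apart from heme and LPS. In LPS against albumin, either the albumin step or 4 h of culture may differ as well.

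A dividing cell commits itself in G1, when D-type cyclins and their kinases release the E2F transcription factors, and Cdkn1a and Cdkn1b, which encode the kinase inhibitors p21 and p27, hold it back. E2F factors then drive the genes that license origins, unwind DNA and supply nucleotides, and a later wave of genes drives chromosome condensation, spindle assembly and division. Macrophages grown from marrow divide in response to M-CSF, and LPS is known to stop that division.

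The arrays differed in how many features were listed at exactly 0, with 17.9% to 48.8% of 44397 features at 0 on an array. Arrays lettered a in the 4 LPS-treated groups held 44.3% to 48.8%. Of the members, Aurkb, Cenpf, Ccne2 and Cdc45, each with 1 probe, had values at exactly 0 on 4, 6, 5 and 1 arrays. Among members with several probes, 1 probe of Cdk1 was at 0 on 7 arrays, 1 of Cdkn1b on 9 and each of the 2 of Cdc6 on 1, and these 0s enter the averages of those genes. Nfe2l2, the gene that encodes Nrf2, was listed at 0 on all 9 arrays labelled Nrf2-/-. It ran from -0.59 to 1.0 on the 6 LPS-treated Nrf2+/+ arrays and was -0.22 on 1 albumin array, with 0 on the other 2. Its target Nqo1 was 0 to 1.15 on the Nrf2-/- heme and LPS arrays, against 2.98 to 3.57 on those of Nrf2+/+ cells. Gclm and Hmox1 still rose in Nrf2-/- cells in heme and LPS against LPS (limma, 3.28, adjusted p 5.6e-05, and 4.01, adjusted p 3.4e-06). On Nrf2-/- heme and LPS arrays Gclm was 1.72 to 3.64 and Hmox1 1.73 to 3.52. Those of Nrf2+/+ cells had 3.57 to 4.51 and 3.85 to 4.47. Log ratios of arrays of the same group correlated with r from 0.582 to 0.885 over all features, and no pair of arrays had a correlation below 0. The members varied far less among albumin arrays (median SD 0.04) than among the Nrf2-/- heme and LPS (0.81), Nrf2-/- LPS (0.53), Nrf2+/+ heme and LPS (0.64) and Nrf2+/+ LPS arrays (0.46), while the fit uses 1 spread per gene for all groups. The design text calls the replicates independent and biological without saying whether each is a separate mouse, so p-values measure the spread between these arrays.

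**Figure D1:**
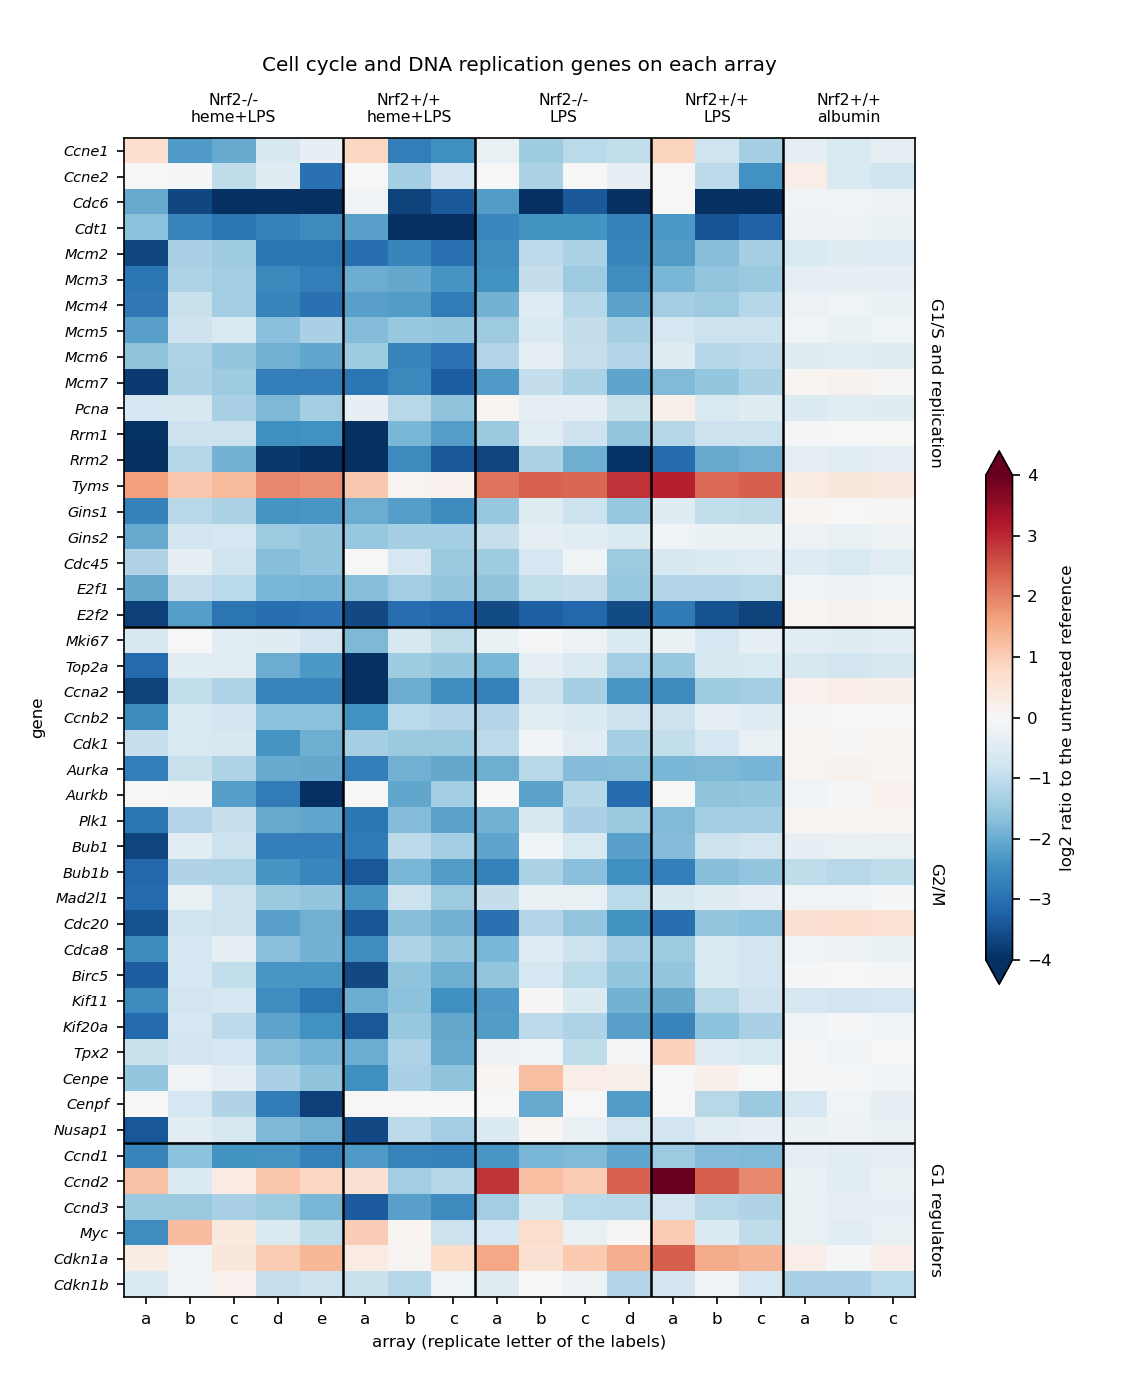
Log2 ratio to the untreated 0 h reference (colour, limited to the range from -4 to 4) of the 45 measured genes (rows, by class) on the 18 arrays (columns, by group). The albumin columns stay near 0, the other 4 groups are mostly below 0, and Tyms, Ccnd2 and Cdkn1a are above 0 on the LPS arrays of both genotypes.

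In Nrf2+/+ cells the cell cycle genes lay lower after LPS than after albumin, and lower again after heme and LPS. After LPS against albumin 10 of 45 members fell and 3 rose (limma, adjusted p under 0.05), beside 16.3% of all genes called lower and 12.3% called higher. The median difference over members was -0.73, and 36 of 45 were below 0, beside 11135 of 22485 genes. The median over all genes was 0, a weak yardstick, since column medians are 0 and many ratios are listed at 0. With values at 0 taken as missing it was -0.12. The arrays of both groups did not overlap for 27 members lower and 5 higher, beside 27.3% of all genes lower and 19.9% higher. By class the counts were 5 lower and 1 higher of 19 G1/S genes (median -0.91), 4 lower of 20 G2/M genes (median -0.72), and 1 lower and 2 higher of 6 G1 regulators (median 0.44). A fit of only these 6 arrays, whose spread per gene comes from the LPS and the narrow albumin arrays alone, called 25 members, 21 of them lower.

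Heme before LPS, set against LPS, gave 10 members lower and 0 higher of 45, beside 6.35% of all genes lower and 8.34% higher. At an unadjusted p under 0.05 limma had 16 lower and 0 higher. The median difference was -0.85 and 40 of 45 members were below 0, beside 9988 of 22485 genes. Groups without overlap were found for 23 members lower and 0 higher, beside 11.4% of all genes lower and 12.9% higher. Of the G1/S genes 4 of 19 fell (median -1.05), of the G2/M genes 2 of 20 (median -0.77), and of the G1 regulators 4 of 6 (median -1.12). Without LPS array a 6 of the 10 calls were left, and the calls of Gins1, Tpx2, Ccnd1 and Cdkn1a were the ones lost. A fit of only these 6 arrays called 7 members lower, 5 of them among the 10, and lost Mcm6 (adjusted p 0.182), Tpx2 (0.161), Ccnd2 (0.0963), Ccnd3 (0.0703) and Cdkn1a (0.11). Without all LPS-treated arrays lettered a, in both genotypes, the calls of Gins1 (adjusted p 0.0839), Tpx2 (0.186), Cenpe (0.0626) and Cdkn1a (0.205) were lost.

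Set against albumin, heme and LPS gave 27 members lower and 0 higher (31 and 0 at an unadjusted p under 0.05), beside 14.4% of all genes lower and 12.9% higher. The 27 were 13 of 19 G1/S genes (median -1.88), 12 of 20 G2/M genes (median -1.64) and 2 of 6 G1 regulators (median -0.05). Groups did not overlap for 33 members lower and 1 higher, beside 23.8% of all genes lower and 19.9% higher. These 3 comparisons share arrays pairwise, so their counts are not independent of each other.

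**Figure D2:**
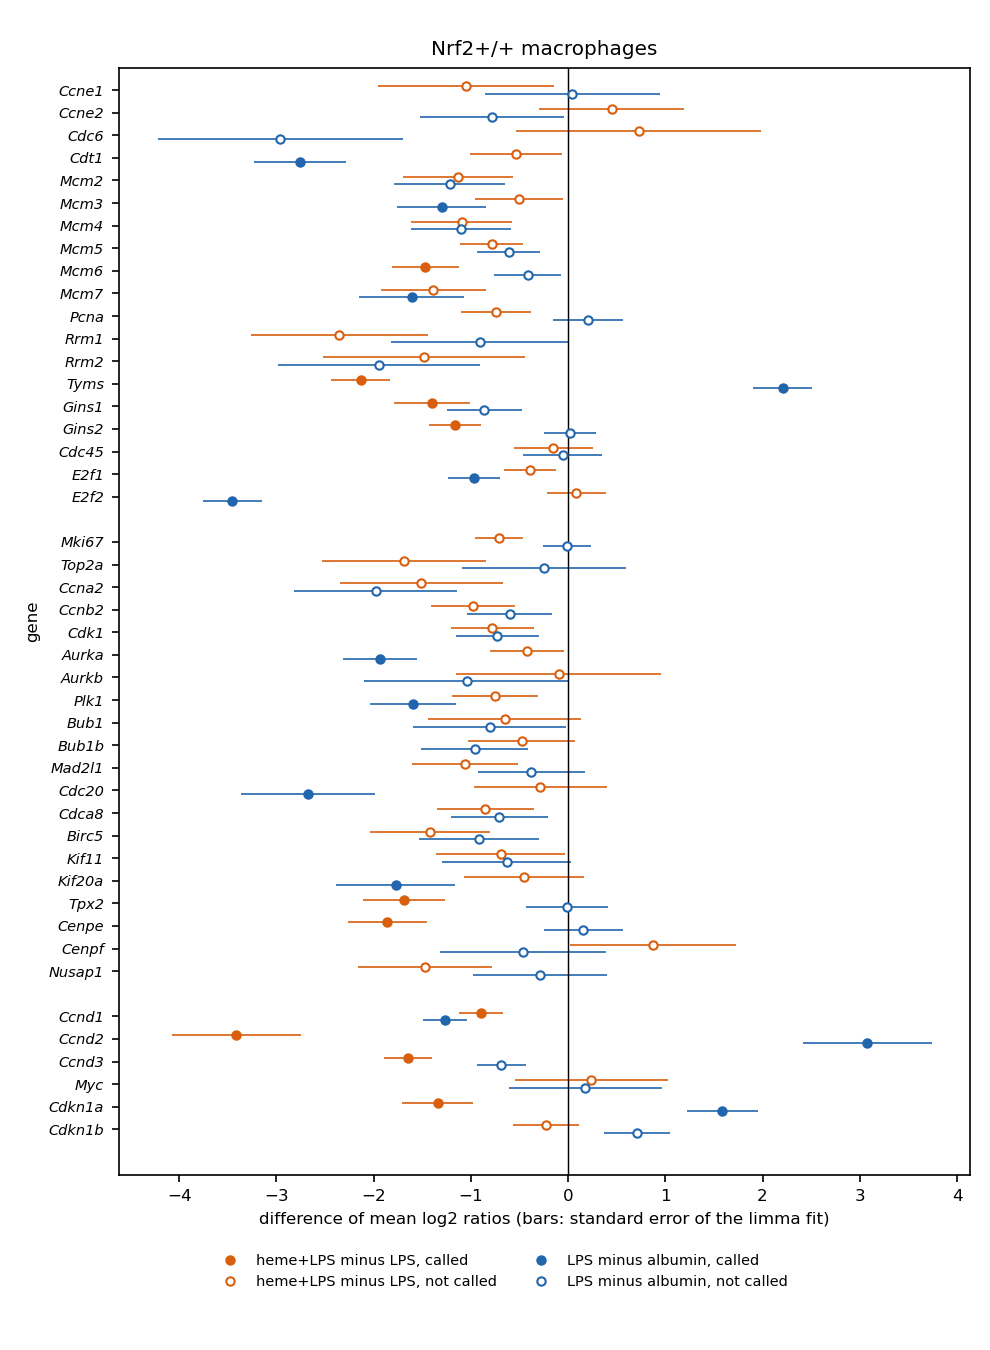
Difference in log2 ratio ± SE of each measured gene in Nrf2+/+ cells, heme and LPS minus LPS (orange) and LPS minus albumin (blue), with filled points for an adjusted p under 0.05 (limma). Most points lie left of 0 in both comparisons, while Tyms, Ccnd2 and Cdkn1a lie right of 0 for LPS minus albumin and left of 0 for heme and LPS minus LPS.

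On single arrays, the median log2 ratio of the 19 G1/S genes was -1.73, -2.20 and -2.45 after heme and LPS, -0.71, -1.13 and -1.15 after LPS, and -0.22, -0.25 and -0.25 after albumin in Nrf2+/+ cells. The 3 groups did not overlap in this median. For the 20 G2/M genes the medians were -2.63, -1.46 and -1.60 after heme and LPS, -1.46, -0.78 and -0.74 after LPS, and -0.13, -0.09 and -0.10 after albumin. Array a was the lowest of its group for G2/M genes and the nearest to 0 for G1/S genes, in both LPS-treated groups. For the G1 regulators the heme and LPS arrays (-0.28, -1.27 and -1.0) overlapped both the LPS arrays (0.15, -0.34 and -0.83) and the albumin arrays (-0.30, -0.42 and -0.32).

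**Figure D3:**
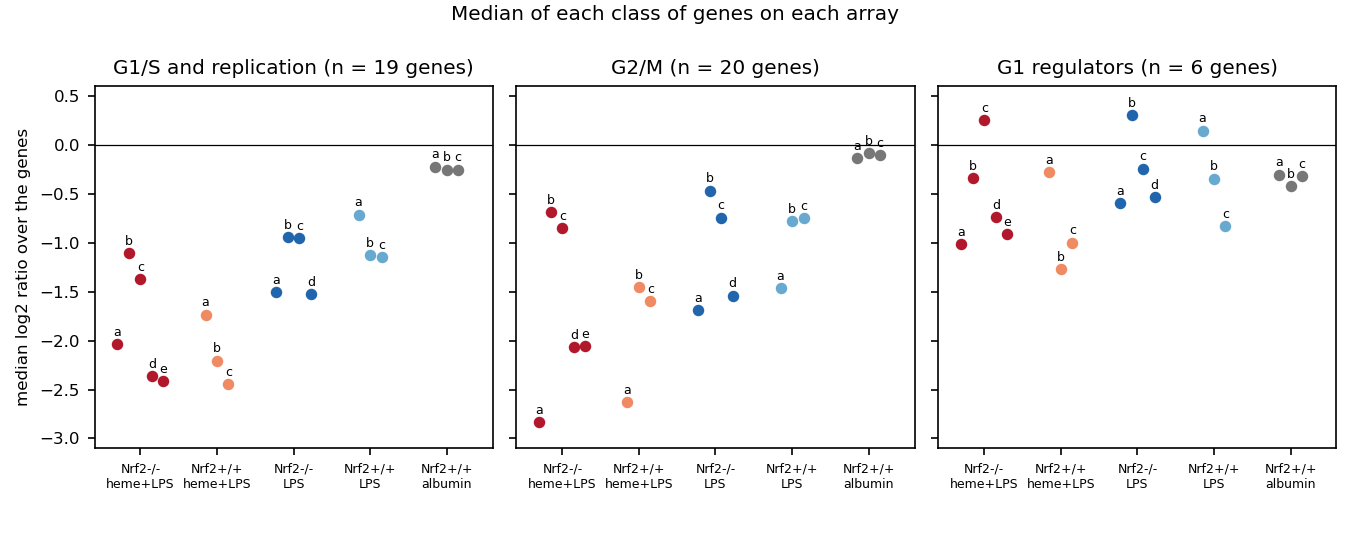
Median log2 ratio to the untreated reference over the G1/S, G2/M and G1 regulator genes (panels) on each array (points, marked by their letter) of the 5 groups. In the G1/S panel the 3 Nrf2+/+ groups are separate, and in each of the first 2 panels the Nrf2-/- arrays b and c lie nearer 0 than a, d and e.

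The E2F factors come first in the G1/S class, since factors of this family are known to regulate many replication genes. E2f2 was -3.61, -3.04 and -3.15 after heme and LPS, -2.84, -3.50 and -3.72 after LPS, and 0.09, 0.13 and 0.09 after albumin. The heme and LPS arrays lie among the LPS arrays, and both groups lie far below albumin. It fell in LPS against albumin, with a log2 difference of -3.45 ± 0.30 (SE; 10.9-fold, adjusted p 1.5e-06), the largest fall among the members called in that comparison. E2f1 was -1.69, -1.40 and -1.54 after heme and LPS, -1.17, -1.18 and -1.10 after LPS, and -0.16, -0.21 and -0.18 after albumin. It also fell in LPS against albumin, with a log2 difference of -0.97 ± 0.26 (adjusted p 0.0125), and the 3 groups were in separate ranges.

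Origin licensing loads the MCM2-7 helicase onto DNA with the help of Cdt1 and Cdc6. Cdt1 was -2.16, -4.05 and -4.38 after heme and LPS, -2.30, -3.46 and -3.22 after LPS, and -0.24, -0.20 and -0.26 after albumin. Both treated groups were below albumin and overlapped each other, and the fall in LPS against albumin was -2.76 ± 0.47 on the log2 scale (6.78-fold, adjusted p 0.00049). Cdc6 was at -4.00 and -5.36 on LPS arrays b and c and at -0.02 on array a, where 1 of its 2 probes was listed at exactly 0, against -0.15, -0.14 and -0.20 after albumin. It was not called in LPS against albumin (-2.96 ± 1.26, adjusted p 0.0981). Without array a it was called (-4.51, adjusted p 0.00898). Its 2 probes gave -3.40 and -2.52.

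For each of the helicase genes Mcm2 to Mcm7 every heme and LPS array was below every LPS array, and the heme difference of Mcm6 passed the test. Mcm6 was -1.42, -2.66 and -2.97 after heme and LPS, -0.48, -1.13 and -1.04 after LPS, and -0.48, -0.44 and -0.48 after albumin. LPS array a was level with albumin, and the heme difference was -1.47 ± 0.34 (2.76-fold, adjusted p 0.00908). Mcm7 averaged -2.91 after heme and LPS, -1.52 after LPS and 0.09 after albumin, and Mcm5 averaged -1.59 ± 0.12, -0.81 ± 0.09 and -0.20 ± 0.05 (SD, n = 3 each) in the same groups. Mcm7 and Mcm3 fell in LPS against albumin (-1.61 ± 0.54, adjusted p 0.037, and -1.30 ± 0.45, adjusted p 0.0449), and either call was lost when any 1 of the 6 arrays was left out. Mcm5 had groups without overlap in both steps, but neither its heme difference (-0.78 ± 0.32, adjusted p 0.143) nor its LPS difference (-0.61 ± 0.32, adjusted p 0.188) was called. Mcm2 (-1.22 ± 0.57, adjusted p 0.131) was not called in LPS against albumin either. All 6 of Mcm2 to Mcm7 were called lower in heme and LPS against albumin, Mcm7 by -3.00 ± 0.54 and Mcm2 by -2.35 ± 0.57.

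The promoters of Mcm5 and Mcm6 are shown because both hold the letters of an E2F site and both genes were called lower in heme and LPS against albumin. A search of the RefSeq windows from 250 bases before to 50 after each annotated start (GRCm38.p6) for TTTCGCGC or TTTGGCGC on either strand found them in 6 of the 15 G1/S members with a window, 1 of 17 G2/M members and 0 of 3 G1 regulators, beside 0.929% of 27025 genes. Capitals mark the matched letters. In Mcm5 and at the first place in Mcm6 a match on each strand overlaps, and the second place in Mcm6 is a single match. The stretches end at the base before the start: Mcm5 at chr8:75109339-75109508 on the plus strand and Mcm6 at chr1:128359706-128359835 on the minus strand.
Mcm5: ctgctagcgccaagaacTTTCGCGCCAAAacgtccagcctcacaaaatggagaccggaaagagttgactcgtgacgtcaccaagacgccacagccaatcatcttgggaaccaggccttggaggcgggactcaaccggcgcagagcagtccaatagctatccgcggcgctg
Mcm6: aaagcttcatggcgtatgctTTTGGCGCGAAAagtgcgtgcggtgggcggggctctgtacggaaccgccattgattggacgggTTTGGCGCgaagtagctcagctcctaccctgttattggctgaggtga
A match is a description of the letters in this window, and no binding was measured.

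GINS and Cdc45 join the MCM ring to form the active helicase. Gins2 was -1.52, -1.32 and -1.34 after heme and LPS, against -0.18, -0.25 and -0.26 after LPS and -0.22, -0.31 and -0.22 after albumin. LPS arrays lie among albumin arrays for this gene, and the heme and LPS arrays stand apart below both, with a heme difference of -1.16 ± 0.27 (2.24-fold, adjusted p 0.00821). Gins1 was -1.97, -2.20 and -2.50 after heme and LPS, against -0.48, -0.97 and -1.02 after LPS, and it fell too (log2 difference -1.40 ± 0.39, adjusted p 0.0238). That call was lost when LPS array a (adjusted p 0.0981) or, of the heme and LPS arrays, b (0.0585) or c (0.0884) was left out. Cdc45 was -0.68 and -1.49 on 2 heme and LPS arrays and listed at 0 on the third, against -0.64, -0.55 and -0.53 after LPS.

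Tyms, which encodes the enzyme that makes thymidylate for DNA, went against its class. It was 1.08, 0.10 and 0.16 after heme and LPS, 3.11, 2.25 and 2.38 after LPS, and 0.29, 0.46 and 0.36 after albumin. LPS arrays stand well above the other groups, and heme and LPS arrays overlap the albumin arrays. Tyms rose by 2.21 ± 0.30 in LPS against albumin (4.62-fold, adjusted p 7.34e-05), the only G1/S member called higher there, and it fell in heme and LPS against LPS (-2.13 ± 0.30, 4.39-fold, adjusted p 0.000209). Both subunits of ribonucleotide reductase, which makes deoxynucleotides, followed the rest of the class instead. Rrm2 was -5.54, -2.53 and -3.39 after heme and LPS, -3.09, -2.02 and -1.92 after LPS, and -0.35, -0.43 and -0.40 after albumin, and Rrm1 was -5.82, -1.83 and -2.20, -1.13, -0.83 and -0.84, and -0.04, -0.02 and -0.03 in the same groups. The heme and LPS array a is far below its fellows for both genes. Neither gene was called for heme (-1.48 ± 1.04, adjusted p 0.48, and -2.35 ± 0.91, adjusted p 0.115), and Rrm2 was not called for LPS (-1.95 ± 1.04, adjusted p 0.193). Both were called lower in heme and LPS against albumin (-3.43 ± 1.04, adjusted p 0.0235, and -3.26 ± 0.91, adjusted p 0.0149), calls that were lost without that array (adjusted p 0.107 and 0.0573). The Rrm2 call was also lost without any 1 of the albumin arrays (adjusted p 0.0572 to 0.0592).

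Pcna, the sliding clamp of the DNA polymerases, was -0.32, -1.12 and -1.62 after heme and LPS, 0.24, -0.60 and -0.48 after LPS, and -0.53, -0.44 and -0.48 after albumin, with overlap between all 3 groups. The cyclin E genes, whose products start S phase, gave no clear order. Ccne1 was 0.82, -2.77 and -2.45 after heme and LPS, 0.88, -0.80 and -1.32 after LPS, and -0.39, -0.62 and -0.37 after albumin, array a being above 0 in both treated groups.

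**Figure D4:**
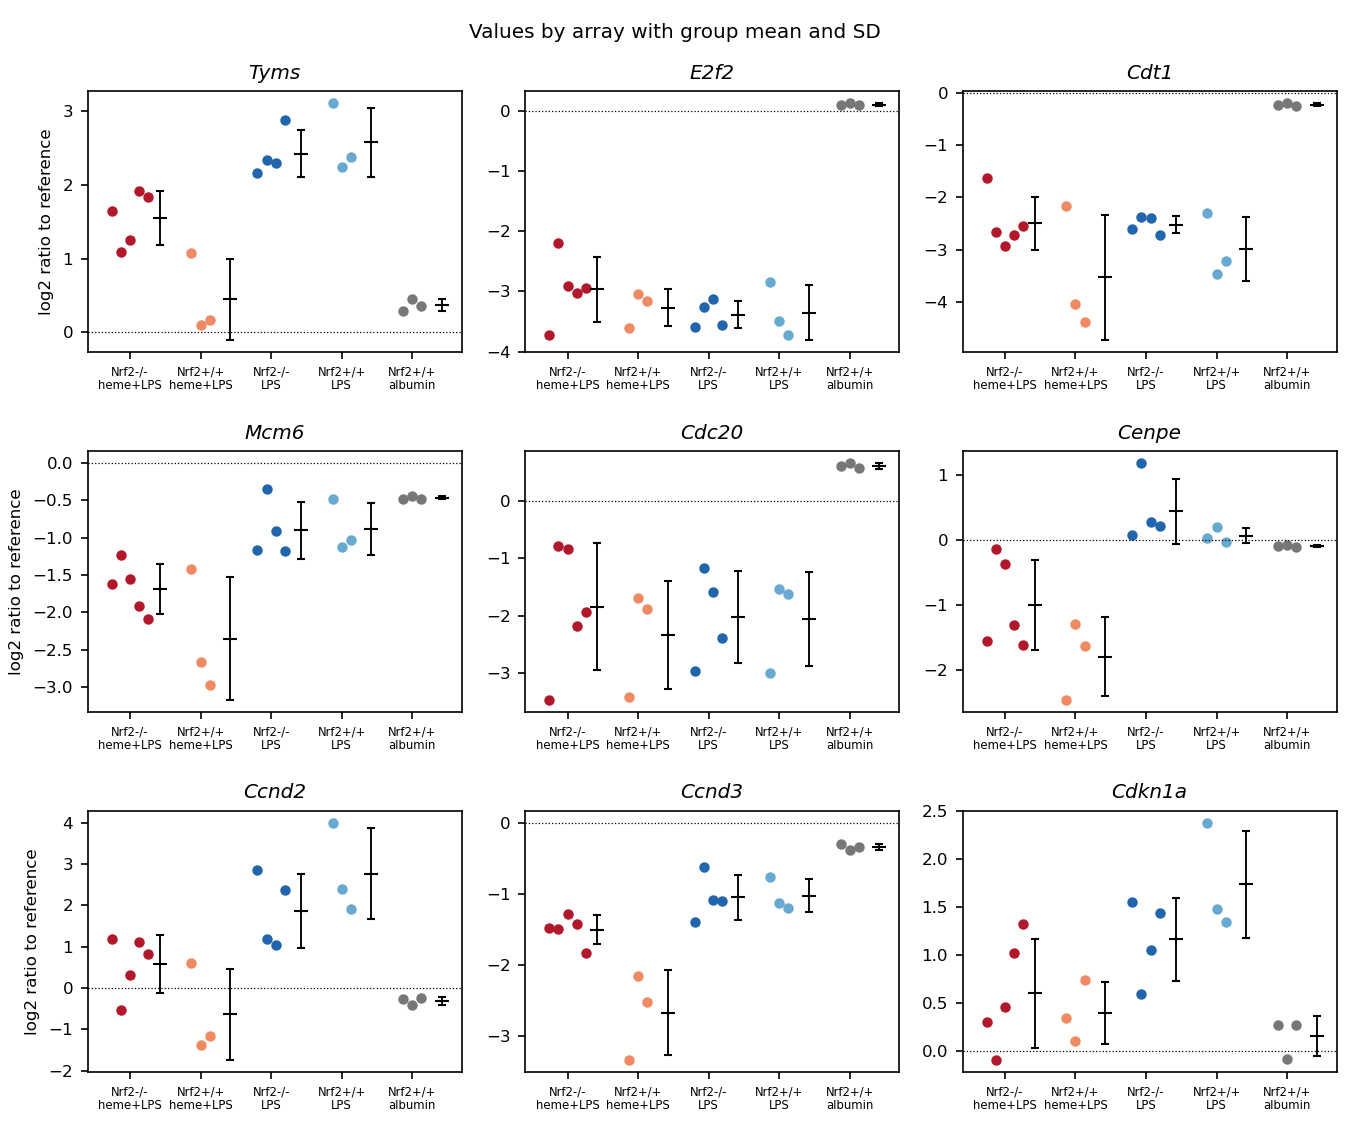
Log2 ratio to the untreated reference of 9 genes on each array (points) with the mean ± SD of each group (lines). Tyms, Ccnd2 and Cdkn1a are high on the LPS arrays, E2f2, Cdt1 and Cdc20 are below albumin on all LPS-treated arrays, and the means of Mcm6, Cenpe and Ccnd3 are lowest in Nrf2+/+ cells with heme and LPS.

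Among G2/M genes, Cdc20, which activates the ubiquitin ligase that ends mitosis, had the largest fall called in LPS against albumin. It was -3.43, -1.69 and -1.89 after heme and LPS, -3.00, -1.53 and -1.63 after LPS, and 0.61, 0.67 and 0.57 after albumin. The treated groups overlap and both lie below albumin, with a log2 difference of -2.67 ± 0.69 (6.37-fold, adjusted p 0.00881) for LPS against albumin. The mitotic kinase genes Aurka and Plk1 fell too. Aurka was -2.78, -1.91 and -2.05 after heme and LPS, -1.82, -1.79 and -1.85 after LPS, and 0.10, 0.15 and 0.08 after albumin, and its LPS difference was -1.93 ± 0.38 (adjusted p 0.00144). Plk1 gave -1.59 ± 0.44 (adjusted p 0.0139; 0.0528 without LPS array a), and Kif20a, a kinesin of cytokinesis, gave -1.77 ± 0.62 (adjusted p 0.043, lost on leaving out any 1 of the 6 arrays but LPS array c).

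Some other G2/M genes were below albumin on every LPS array without being called. Ccna2, cyclin A2, was -5.36, -1.97 and -2.50 after heme and LPS, -2.50, -1.44 and -1.36 after LPS, and 0.18, 0.26 and 0.19 after albumin. Its LPS difference was -1.98 ± 0.84 (adjusted p 0.0964) and its heme difference -1.51 ± 0.84 (adjusted p 0.326), while heme and LPS against albumin gave -3.49 ± 0.84 (11.2-fold, adjusted p 0.00606). Without heme and LPS array a that difference was -2.44 (adjusted p 0.026), and a fit of only these 6 arrays did not call it (adjusted p 0.0617). Cdk1, the kinase that starts mitosis, was -1.34, -1.49 and -1.47 after heme and LPS, -0.98, -0.70 and -0.28 after LPS, and 0.08, 0.04 and 0.11 after albumin. The 3 groups did not overlap, and heme and LPS against albumin was called (-1.51 ± 0.43, adjusted p 0.0161), while its heme difference (-0.78 ± 0.43, adjusted p 0.317) and its LPS difference (-0.73 ± 0.43, adjusted p 0.238) were not. Its 3 probes gave heme differences from -1.41 to 0.34, and the probe with 0.34 was listed at exactly 0 on 3 of the 6 arrays compared. With values at 0 taken as missing the heme difference was -1.09 (adjusted p 0.0853). Mki67, the gene of the proliferation marker Ki-67, was -1.80, -0.65 and -1.02 after heme and LPS, -0.26, -0.69 and -0.40 after LPS, and -0.42, -0.50 and -0.42 after albumin. LPS and albumin overlap for it, and its heme difference of -0.71 ± 0.25 was not called (adjusted p 0.0745). In heme and LPS against albumin it was called (-0.71 ± 0.25, adjusted p 0.044), a call that leaving out heme and LPS array a or c or any 1 albumin array ended (adjusted p 0.0631 to 0.195). In the same comparison Birc5, survivin, a subunit of the chromosomal passenger complex, fell (-2.34 ± 0.62, adjusted p 0.0108; 0.0551 without heme and LPS array a).

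Cenpe and Tpx2 were the G2/M genes called lower after heme and LPS against LPS. Cenpe, a kinetochore motor, was -2.46, -1.29 and -1.62 after heme and LPS, 0.03, 0.20 and -0.03 after LPS, and -0.08, -0.07 and -0.11 after albumin. LPS left it close to the albumin level, and the heme difference was -1.86 ± 0.41 (3.63-fold, adjusted p 0.0056). Tpx2, a spindle assembly factor, was -2.0, -1.25 and -2.01 after heme and LPS, 0.93, -0.51 and -0.62 after LPS, and -0.05, -0.10 and -0.03 after albumin. Its heme difference of -1.69 ± 0.42 (adjusted p 0.0128) became -1.19 on leaving out LPS array a (adjusted p 0.0609) and -1.56 on leaving out array c of heme and LPS (adjusted p 0.0516). Its 2 probes disagreed in size, with heme differences of -2.50 and -0.87. Top2a, the topoisomerase that untangles chromosomes, was -4.86, -1.42 and -1.54 after heme and LPS, against -1.51, -0.63 and -0.62 after LPS, and was not called (-1.68 ± 0.85, adjusted p 0.26).

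Array a also stood below its fellows for most of the remaining G2/M genes. The spindle checkpoint genes Bub1, Bub1b and Mad2l1, the passenger complex gene Cdca8, cyclin B2 (Ccnb2) and the spindle gene Nusap1 ran from -3.60 to -0.85 after heme and LPS, from -2.74 to -0.36 after LPS and from -1.12 to 0.03 after albumin. Array a was the lowest of its group for each of these 6 genes in both treated groups. Aurkb, the passenger complex kinase, was -2.08 and -1.37 on heme and LPS arrays b and c, -1.60 and -1.56 on LPS arrays b and c, and -0.14, -0.06 and 0.18 after albumin, and it was listed at 0 on array a of every LPS-treated group. Cenpf, a kinetochore gene, was listed at 0 on 6 arrays, 2 of them heme and LPS arrays of Nrf2+/+ cells, so that its differences rest on few measured ratios.

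The promoters of Cdc20, Cdk1 and Kif11, the gene of the spindle kinesin Eg5, are shown because they hold the letters of a cell cycle homology region (CHR), an element known from late cell cycle genes. TTTGAA on either strand was found in 11 of 17 G2/M members with a window, 3 of 15 G1/S members and 0 of 3 G1 regulators, beside 20.2% of all genes. CCAAT on either strand was in 14 of 17 G2/M members and 10 of 15 G1/S members, beside 41.1% of all genes. Each stretch is the 100 bases before the annotated start in GRCm38.p6 as given by RefSeq, with TTTGAA, or TTCAAA for a match on the other strand, in capitals. Cdc20 is at chr4:118437344-118437443 on the minus strand, Cdk1 at chr10:69352913-69353012 on the minus strand and Kif11 at chr19:37376282-37376381 on the plus strand.
Cdc20: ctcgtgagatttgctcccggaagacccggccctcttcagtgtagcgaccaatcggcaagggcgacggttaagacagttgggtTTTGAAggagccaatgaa
Cdk1: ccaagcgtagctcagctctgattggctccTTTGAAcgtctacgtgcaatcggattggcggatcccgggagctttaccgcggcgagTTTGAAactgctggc
Kif11: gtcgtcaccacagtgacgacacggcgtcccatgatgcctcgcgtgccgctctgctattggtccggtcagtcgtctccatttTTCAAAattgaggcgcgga
Cdc20 was called lower in LPS against albumin, Cdk1 in heme and LPS against albumin, and Kif11 in neither, its ratios being -1.97, -1.65 and -2.45 after heme and LPS, -2.03, -1.12 and -0.84 after LPS, and -0.67, -0.76 and -0.66 after albumin.

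The 3 D-type cyclins, partners of Cdk4 and Cdk6 in G1, did not move alike. Ccnd2 was 0.62, -1.39 and -1.15 after heme and LPS, 4.00, 2.39 and 1.91 after LPS, and -0.26, -0.42 and -0.25 after albumin. LPS arrays are far above both other groups, which overlap each other. It rose by 3.08 ± 0.66 in LPS against albumin (8.44-fold, adjusted p 0.00267) and fell in heme and LPS against LPS (-3.41 ± 0.66, 10.6-fold, adjusted p 0.00245). Ccnd1 went down in both steps, with -2.27, -2.66 and -2.70 after heme and LPS, -1.45, -1.74 and -1.76 after LPS, and -0.35, -0.44 and -0.37 after albumin. It fell in LPS against albumin (-1.26 ± 0.23, adjusted p 0.000686) and in heme and LPS against LPS (-0.89 ± 0.23, adjusted p 0.0142), and the second call was lost on leaving out LPS array a (adjusted p 0.0644) or, of the heme and LPS arrays, b (0.0523) or c (0.0579). Ccnd3 was -3.34, -2.16 and -2.53 after heme and LPS, -0.76, -1.12 and -1.20 after LPS, and -0.30, -0.39 and -0.33 after albumin. Its heme difference of -1.65 ± 0.25 was called (3.13-fold, adjusted p 0.000402) and its LPS difference was just outside the threshold (-0.69 ± 0.25, adjusted p 0.0557). Its 2 probes disagreed in size, with LPS differences of -1.12 and -0.26 and heme differences of -2.07 and -1.22. The LPS difference was called in 8 of 15 alternative fits.

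Of the kinase inhibitors, Cdkn1a was 0.34, 0.11 and 0.74 after heme and LPS, 2.38, 1.48 and 1.35 after LPS, and 0.27, -0.09 and 0.27 after albumin. As for Ccnd2 and Tyms, LPS arrays are above both other groups and these overlap. Cdkn1a rose by 1.58 ± 0.37 in LPS against albumin (adjusted p 0.00432) and fell in heme and LPS against LPS (-1.34 ± 0.37, adjusted p 0.0218), a call lost on leaving out LPS array a (adjusted p 0.11) or, of the heme and LPS arrays, a (0.061) or b (0.0842). Cdkn1b was -0.89, -1.14 and -0.18 after heme and LPS, -0.73, -0.15 and -0.66 after LPS, and -1.31, -1.30 and -1.07 after albumin. Its LPS difference of 0.71 ± 0.34 was not called (adjusted p 0.139). Its 2 probes gave -0.44 and 1.86, so the positive difference rests on the second. That probe was listed at exactly 0 on 2 of the 3 LPS arrays. It was -0.83 on LPS array c, against -2.31, -2.19 and -1.91 after albumin. With values at 0 taken as missing the difference of Cdkn1b was 0.42 (adjusted p 0.448). Myc, the growth-driving transcription factor gene, ran from -0.85 to 0.97 after heme and LPS, from -1.0 to 1.03 after LPS and from -0.43 to -0.30 after albumin, and was called in none of these comparisons.

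Nrf2-/- cells gave 2 members lower and 0 higher of 45 in heme and LPS against LPS, beside 2.67% of all genes lower and 4.1% higher. At an unadjusted p under 0.05 there were 10 lower and 0 higher. The median difference was -0.55, with -0.58 for G1/S genes, -0.58 for G2/M genes and -0.44 for G1 regulators. Differences below 0 were found for 40 of 45 members, beside 10305 of 22485 genes. The letter block gave -0.36 for G1/S genes and -0.40 for G2/M genes, as did leaving out heme and LPS array e, which has no LPS array of its letter. With 1 array left out in turn the medians ran from -0.75 to -0.36 for G1/S genes and from -0.83 to -0.36 for G2/M genes. For 3 members, Tyms, Cenpe and Mcm6, every heme and LPS array was below every LPS array, and for 0 above, beside 3.04% of all genes lower and 4.6% higher in this way. Tyms was 1.65, 1.09, 1.26, 1.92 and 1.84 after heme and LPS, against 2.16, 2.34, 2.30 and 2.89 after LPS. The groups did not overlap, and the fall of -0.87 ± 0.25 was at the edge of the threshold (adjusted p 0.0499), lost on leaving out any 1 of the 9 arrays but heme and LPS array d. Cenpe was -1.56, -0.14, -0.37, -1.31 and -1.62 after heme and LPS, against 0.08, 1.19, 0.28 and 0.21 after LPS, again without overlap, and fell (-1.44 ± 0.33, adjusted p 0.0176; 0.056 without LPS array b). A fit of only these 9 arrays called 0 members (Cenpe had adjusted p 0.113). Mcm6 also had groups without overlap (-1.62, -1.23, -1.55, -1.92 and -2.09 after heme and LPS, against -1.16, -0.35, -0.91 and -1.18 after LPS) and was not called (-0.78 ± 0.28, adjusted p 0.139).

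For Ccnd2, Ccnd3 and Cdkn1a the heme and LPS arrays of Nrf2-/- cells overlapped the LPS arrays. Ccnd2 was 1.18, -0.53, 0.32, 1.11 and 0.83 after heme and LPS, against 2.86, 1.19, 1.03 and 2.36 after LPS, and Cdkn1a was 0.30, -0.09, 0.45, 1.02 and 1.32, against 1.56, 0.59, 1.05 and 1.44. Ccnd3 was -1.48, -1.49, -1.28, -1.43 and -1.84 after heme and LPS, against -1.40, -0.63, -1.08 and -1.10 after LPS, and was not called (-0.45 ± 0.21, adjusted p 0.277). Levels of the genes that were low under LPS in Nrf2+/+ cells were low here too. E2f2 averaged -2.97 ± 0.54 after heme and LPS (SD, n = 5) and -3.39 ± 0.23 after LPS (SD, n = 4), and Cdc20 averaged -1.84 ± 1.10 and -2.03 ± 0.80 in the same groups. Cdt1 was -1.63, -2.67, -2.93, -2.71 and -2.54 after heme and LPS, against -2.60, -2.38, -2.39 and -2.71 after LPS, with overlap. Mki67 stayed nearer the reference, at -0.63, 0.01, -0.42, -0.49 and -0.74 after heme and LPS, against -0.27, -0.06, -0.23 and -0.58 after LPS.

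Deviations of same-letter Nrf2-/- arrays from their group means correlated at r 0.216 to 0.586, against -0.365 to 0.363 for other letters. Only 2 of 4 LPS arrays matched best with their own letter, so the pairing is partial. A fit with the letter as a block uses 1 effect per letter over all groups, including albumin arrays without such a pairing. It called 5 members lower: Tyms (-0.94 ± 0.19, adjusted p 0.0141), Cenpe (-1.28 ± 0.24, adjusted p 0.00979), Ccnd2 (-1.34 ± 0.32, adjusted p 0.0292), Cdkn1a (-0.74 ± 0.20, adjusted p 0.0473) and Pcna, named after its value was seen (-0.73 ± 0.20, adjusted p 0.0484). A block of genotype and letter over the LPS-treated arrays, chosen after seeing the data, did not call Cdkn1a (adjusted p 0.177) or Pcna (0.0521) and called Gins1 (-0.76, adjusted p 0.031). Without the block Ccnd2 had -1.28 ± 0.54 (adjusted p 0.226) and Cdkn1a -0.56 ± 0.30 (adjusted p 0.384). Arrays b and c were nearer 0 than the others: the G1/S median was -2.04, -1.11, -1.37, -2.37 and -2.42 after heme and LPS, against -1.51, -0.94, -0.95 and -1.52 after LPS, and the G2/M median was -2.83, -0.69, -0.85, -2.06 and -2.06, against -1.69, -0.47, -0.74 and -1.54. Within letters, heme and LPS was below LPS in all 4 Nrf2-/- pairs for 17 of 45 members, beside 10.5% of all genes. The median of the within-letter differences of G1/S genes was -0.51, -0.28, -0.24 and -0.30 for letters a to d in Nrf2-/- cells, and -0.78, -0.63 and -1.14 for a to c in Nrf2+/+ cells. For G2/M genes it was -0.84, -0.09, -0.03 and -0.54 in Nrf2-/- cells, near 0 for letters b and c, and -1.12, -0.50 and -0.81 in Nrf2+/+ cells. Of the 17 members, 9 were G1/S genes (of 19), 5 were G2/M genes (of 20) and 3 were G1 regulators (of 6).

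The heme difference in Nrf2-/- cells minus that in Nrf2+/+ cells was called for 0 of 45 members, beside 0.24% of all genes called higher and 0.707% lower, with 3 higher and 0 lower at an unadjusted p under 0.05. The median of this difference was 0.42. It was above 0, the sign of a smaller fall or a larger rise in Nrf2-/- cells, for 36 of 45 members, beside 10937 of 22485 genes. The 3 at the unadjusted threshold were Ccnd2 (2.13 ± 0.86, adjusted p 0.474), Tyms (1.26 ± 0.39, adjusted p 0.222) and Ccnd3 (1.19 ± 0.33, adjusted p 0.132). With array weights, which give less to arrays that vary more, Tyms (1.32, adjusted p 0.0226) and Ccnd3 (1.01, adjusted p 0.0327) were called, and without Nrf2+/+ heme and LPS array b Ccnd3 alone was called (1.45, adjusted p 0.0475). With 1 array left out in turn the median over G1/S genes, 0.54, ran from 0.32 to 0.66, and that over G2/M genes, 0.28, ran from -0.02 (without Nrf2+/+ heme and LPS array a) to 0.66 (without array b of that group). In simulated data this test called 31% of 2-fold and 67% of 4-fold changes. The changed genes were drawn from all genes, with 1 spread per gene over the 5 groups. Members spread more, with a median SD of 0.46 to 0.81 in the LPS-treated groups. All genes without values at 0 had 0.23 to 0.32. The share called among members was not simulated and may be lower.

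**Figure D5:**
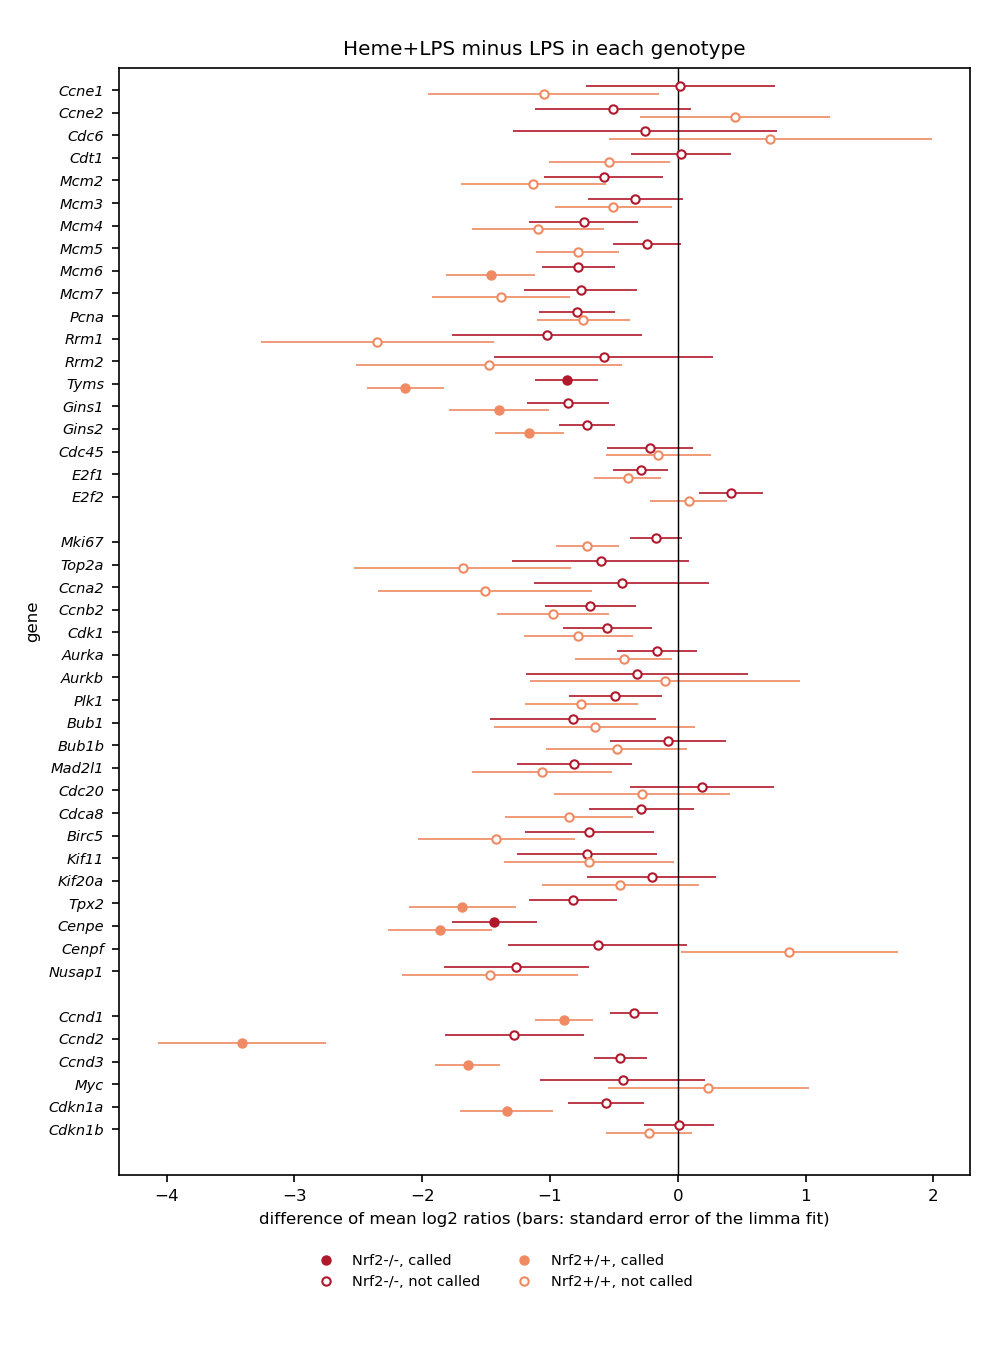
Difference in log2 ratio ± SE between heme and LPS and LPS for each measured gene, in Nrf2-/- cells (upper point of each pair) and in Nrf2+/+ cells (lower point), with filled points for an adjusted p under 0.05 (limma). Both genotypes lie mostly left of 0, and the distance between genotypes passed the test for 0 of 45 genes.

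Under LPS alone, Nrf2-/- against Nrf2+/+ cells differed in 0 of 45 members, with 0 at an unadjusted p under 0.05 as well, beside 0% of all genes called higher and 0.00445% lower. The median difference was -0.12, with -0.14 for G1/S genes and -0.06 for G2/M genes. With the letter as a block these medians were -0.003 and 0.14. With 1 array left out in turn they ran from -0.37 to 0.025 and from -0.28 to 0.15. The upper end for G1/S genes was without Nrf2-/- array d, which has no Nrf2+/+ array of its letter. Gins2 and Ccnd1 had groups without overlap, both lower in Nrf2-/- cells, beside 1.47% of all genes lower and 1.55% higher in this way. Gins2 was -0.93, -0.37, -0.46 and -0.56 in Nrf2-/- cells, against -0.18, -0.25 and -0.26 in Nrf2+/+ cells, and Ccnd1 was -2.32, -1.83, -1.77 and -2.09, against -1.45, -1.74 and -1.76.

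Under heme and LPS, Nrf2-/- against Nrf2+/+ cells gave 2 members higher and 0 lower (6 and 1 at an unadjusted p under 0.05), beside 2.13% of all genes higher and 3.16% lower. The median difference was 0.34 and 35 of 45 members were above 0, beside 10589 of 22485 genes. The median over G2/M genes, 0.41, was -0.06 without Nrf2+/+ array a, and that over G1/S genes, 0.28, was 0.06 without Nrf2-/- array b. Ccnd3 was -1.48, -1.49, -1.28, -1.43 and -1.84 in Nrf2-/- cells, against -3.34, -2.16 and -2.53 in Nrf2+/+ cells, and was higher by 1.17 ± 0.23 (2.25-fold, adjusted p 0.00618). Tyms was 1.65, 1.09, 1.26, 1.92 and 1.84 in Nrf2-/- cells, against 1.08, 0.10 and 0.16 in Nrf2+/+ cells, and was higher by 1.10 ± 0.27 (2.15-fold, adjusted p 0.0268). Neither gene's groups overlapped, as for 3.23% of all genes higher and 4.56% lower, and the call of Tyms was lost without Nrf2-/- array d (adjusted p 0.067) or e (0.0649) or without Nrf2+/+ array b (0.133) or c (0.129). A fit of only these 8 arrays called 0 members. Mki67 (0.71 ± 0.22, adjusted p 0.0883), Ccnd2 (1.22 ± 0.59, adjusted p 0.335) and Rrm1 (1.19 ± 0.81, adjusted p 0.534) were not called, and the last was -0.083 without Nrf2+/+ array a.

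Of 53 other replication genes 22 fell and 1 rose in LPS against albumin (median -0.69), beside 16.3% of all genes lower and 12.3% higher. Among them were Gmnn, the inhibitor of Cdt1 (-3.02), and Pole2, a subunit of DNA polymerase epsilon (-2.29), both lower, while Ung, a repair glycosylase gene, rose by 1.17. In heme and LPS against LPS 10 fell and 2 rose in Nrf2+/+ cells (median -0.52), beside 6.35% of all genes lower and 8.34% higher, among them Timeless, of the replication fork protection complex (-3.36), and Mcm10, a helicase factor (-2.61), with Msh6, a mismatch repair gene, higher by 1.93. In Nrf2-/- cells 3 fell, Timeless (-1.84), Mcm10 (-1.35) and Ung (-0.92), and Msh6 rose by 0.86 (median -0.34), beside 2.67% of all genes lower and 4.1% higher. Of the 53, 32 fell and 1 rose in heme and LPS against albumin, beside 14.4% of all genes lower and 12.9% higher.

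Of 68 other mitosis genes 18 fell and 1 rose in LPS against albumin (median -1.04), beside the same 16.3% and 12.3% of all genes, with Ccnf, cyclin F (-3.92), and Aspm, a spindle pole gene (-2.84), lower and Pttg1, securin, higher by 1.92. In heme and LPS against LPS 65 of the 68 were not called in Nrf2+/+ cells and 66 of 68 in Nrf2-/- cells. The 3 that fell in Nrf2+/+ cells, a smaller share than the 6.35% of all genes called lower, were Kif4, a chromosome-bound kinesin gene (-2.36), Cenph, of the kinetochore (-1.63), and Pttg1 (-1.45). The median was -0.54 there and -0.33 in Nrf2-/- cells, where Ncapg2, a condensin subunit gene, fell (-1.39) and Ccnf rose by 1.28, shares below the 2.67% and 4.1% of all genes. Of the 68, 42 fell and 0 rose in heme and LPS against albumin, beside 14.4% and 12.9% of all genes.

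The 42 other G1 and checkpoint regulators were split between both directions. In LPS against albumin 7 rose and 12 fell (median -0.08), beside 12.3% of all genes higher and 16.3% lower, with Gadd45b, a growth arrest gene (3.70), and Cdk6 (2.34) higher and Skp2, which marks p27 for destruction (-3.39), lower. In heme and LPS against LPS 8 rose and 7 fell in Nrf2+/+ cells (median -0.10), beside 8.34% of all genes higher and 6.35% lower. The kinase inhibitor genes Cdkn2b (2.89) and Cdkn2a (1.69) and the repressor E2f6 (3.30) were higher, and Cdkn2d, another inhibitor gene (-2.51), and E2f8 (-2.80) were lower. In Nrf2-/- cells 4 rose and 2 fell (median -0.12), beside 4.1% of all genes higher and 2.67% lower, with E2f6 higher by 2.29 and Cdkn2d lower (-1.27). Under heme and LPS, Cdkn2b (-3.79) and Cdkn2a (-1.66) were lower in Nrf2-/- than in Nrf2+/+ cells. In the difference of the heme effects between genotypes 0 replication and 0 mitosis genes and 2 of these 42 were called, none of them higher.

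A change in which cells the cultures held was looked at with marker lists, because in RNA of whole cultures fewer cells of a type and less RNA per cell cannot be told apart. The mean log2 ratio over 8 stem and progenitor cell markers was -0.76 to -0.12 on Nrf2-/- heme and LPS arrays, -0.43 to -0.03 on Nrf2-/- LPS arrays, -0.71 to -0.46 on Nrf2+/+ heme and LPS arrays, -0.27 to -0.17 on Nrf2+/+ LPS arrays and -0.10 to 0.08 on albumin arrays. In Nrf2+/+ cells the 3 groups lie in the same order as for the G1/S genes, without overlap, and in Nrf2-/- cells the 2 groups overlap. The step between LPS and albumin rests on Meis1: without it, a setting chosen after seeing the data, the mean was -0.46 to -0.08 on Nrf2+/+ heme and LPS arrays, 0.04 to 0.10 on Nrf2+/+ LPS arrays and -0.15 to 0.06 on albumin arrays, so that LPS arrays no longer lay below albumin arrays. The step between LPS and heme and LPS in Nrf2+/+ cells rests in large part on Myb. It was 0, -1.43 and -0.37 after heme and LPS, against 2.29, 1.65 and 0.62 after LPS. Of the 8 markers, 5 were below 0 and 2 above 0 in that comparison (median -0.23). The part of these markers in the result was not tested. Of the 8, Meis1 fell in LPS against albumin (-2.50), 0 were called in heme and LPS against LPS in either genotype, and Gata2 was listed at 0 on 17 of 18 arrays. Over 10 macrophage markers the mean was -0.37 to 0.13 on Nrf2-/- heme and LPS arrays, -0.02 to 0.43 on Nrf2-/- LPS arrays, -0.95 to -0.54 on Nrf2+/+ heme and LPS arrays, 0.16 to 0.37 on Nrf2+/+ LPS arrays and -0.32 to -0.20 on albumin arrays. Heme and LPS against LPS lowered 3 of them in Nrf2+/+ cells, Fcgr1 (-5.38), Mertk (-3.08) and Mrc1 (-1.21), and Fcgr1 in Nrf2-/- cells (-2.44). Over 10 neutrophil precursor markers the mean was 0.46 to 1.12 on Nrf2-/- heme and LPS arrays, 0.39 to 0.84 on Nrf2-/- LPS arrays, 0.39 to 0.97 on Nrf2+/+ heme and LPS arrays, 0.29 to 0.77 on Nrf2+/+ LPS arrays and at most 0.19 on albumin arrays. In LPS against albumin 5 of the 10 were above 0 and 5 below 0 (median 0.02). Lcn2 was 2.75 to 3.26 on Nrf2+/+ LPS arrays, against -0.01 to 0.35 on albumin arrays. Elane went the other way, at -0.32 to 0.02 against 0.55 to 0.63. In heme and LPS against LPS in Nrf2+/+ cells 1 of 10 neutrophil precursor markers was higher, 1 of 6 erythroid markers lower, 0 of 7 B cell and 0 of 6 T and NK cell markers called, and 1 of 6 stromal markers in each direction. Among the erythroid markers Tfrc was -2.27, -2.54 and -1.67 after heme and LPS, against -0.45, -0.01 and -0.45 after LPS. For the other erythroid markers these groups overlapped. In LPS against albumin limma called 2 macrophage markers higher, 2 neutrophil precursor markers higher and 1 lower, 1 erythroid and 1 T and NK cell marker higher, 2 B cell markers lower and 2 stromal markers higher.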

How the data were processed

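Values were the log10 ratios of sample over reference that the authors deposited, made with Agilent Feature Extraction 10.5.1.1 per the submitters' processing notes. The scale was read from the values. The labels and files state no method of dye or background correction. Ratios were turned to log2. Of 44397 features 33026 had 1 gene symbol, 11371 none and 0 several. Gene identifiers matched a RefSeq table for 32438, which changed 0 symbols. Probes of a gene were averaged (22485 genes; column medians were 0). limma 3.58.1 (R 4.3.3) fitted group means over 18 arrays without a block, with Benjamini-Hochberg adjustment over all genes in each of 7 comparisons and a two-sided threshold of 0.05. Array number limits precision. Between genotypes, same-letter arrays deviated together under LPS (r 0.196 to 0.579) and under heme and LPS (0.228 to 0.533), above every other-letter pair. Heme and LPS with LPS gave a partial pairing in Nrf2-/- cells (0.216 to 0.586 over 4 pairs, other letters -0.365 to 0.363). In Nrf2+/+ cells that pairing gave 0.0121 to 0.476 (other letters -0.337 to 0.355).

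Members and lists were chosen with earlier results of these data known. Per comparison, up to 6 called members per class and direction and up to 4 not called were named, with 10 genes always allowed (Myc, Cdkn1a, Cdkn1b, Ccnd1, Ccnd2, Ccnd3, Mki67, Mcm5, Ccne1 and Cdk1). Of each wider list up to 4 called genes per direction were allowed. Other members appear with array values. Alternatives were scaling, values at 0, probe choice, array weights, blocks, fits of only the groups compared and leaving out each array. The fit was tested on simulated data. Figures used matplotlib 3.10.9.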

Additional observations from a re-analysis of the deposited data

Results flagged for a closer look

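In 90 groups of 4 or 5 arrays (45 genes in the 2 Nrf2-/- groups), 1 array stood apart from its group by Dixon's criterion, which chance meets in about 1 of 20 groups. It was Tpx2 on Nrf2-/- LPS array c, at -1.03 beside -0.23, -0.09 and -0.08, a gap of 0.848 of the group's range. Of its 2 probes, 1 was at -1.87 on array c, beside -1.10, -0.34 and -0.53 on arrays a, b and d. The other probe was at -0.19, beside 0.65, 0.15 and 0.36.

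Outside the 46 genes, 2 of the wider list of G1 and checkpoint regulators had a heme effect that differed between genotypes by limma's test of that difference. Cdkn2a, the gene of the kinase inhibitor p16 and of p19Arf, had a heme effect lower in Nrf2-/- than in Nrf2+/+ cells by -1.55 ± 0.32 (SE, adjusted p 0.0336). Mnat1, a subunit of the kinase that activates cyclin-dependent kinases, had one lower by -0.77 ± 0.15 (adjusted p 0.023).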

How the results depend on the processing

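The counts of members called changed as follows, and the cause was not tested. LPS against albumin (13) gave 20 with the letter as a replicate block, 21 with array weights and 25 with only the groups compared, and 10 to 11 with 1 array left out. Heme and LPS against LPS in Nrf2+/+ cells (10) gave 17 with array weights and 6 to 10 with 1 array left out (13 with the letter block). Heme and LPS against albumin (27) gave 25 to 35, and 20 to 30 with 1 array left out. Heme and LPS against LPS in Nrf2-/- cells (2) gave 1 with quantile normalization, 5 with the letter block, 4 with a genotype-and-letter block chosen after seeing the data, 0 with only the groups compared, and 0 (without LPS array b) to 4 (without heme and LPS array b) with 1 array left out. The difference of heme effects (0) gave 2 with array weights and 0 to 1 with 1 array left out. Nrf2-/- against Nrf2+/+ cells gave 0 under LPS in all fits run; under heme and LPS (2) it gave 5 with array weights, 0 with only the groups compared, 4 without the LPS-treated arrays a, and 1 to 4 with 1 array left out (4 without Nrf2+/+ array a). The letter block changed no call of a member in the last 2 comparisons. Of 1456 values of 89 named results under an alternative, 1317 kept direction and side of the threshold, 90 lost the call, 47 gained it and 2 changed sign: Cdkn1b in LPS against albumin was -0.44 with 1 probe per gene, and Rrm1 in Nrf2-/- against Nrf2+/+ cells under heme and LPS was -0.083 without Nrf2+/+ array a and up to 1.91 without Nrf2+/+ array b. Taking values at 0 as missing moved the median of all genes in LPS against albumin to -0.12. A ratio listed at 0 may be a dim spot, and signal over background was not analysed here.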
